A study of Homo sapiens with 10 samples.

Results

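Transcript levels were examined for 35 genes of the endoplasmic reticulum (ER) and amino acid stress responses in lung cancer cells that differ in their response to discodermolide, a marine compound that stabilises microtubules. The genes were chosen by name, and each was read from the probe set that the platform annotation assigns to it alone, taking the probe set with the highest mean where a gene had several. Of the 35 genes, 34 were measured among 18258 genes in all: 19 of the ATF4 branch and 15 of the ER chaperone branch. PDIA3, a disulfide isomerase, was represented only by probe sets that name several genes and was left out.

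Each of 10 Affymetrix arrays measured total RNA from 1 sample, with values on a log2 scale. A549, a human lung adenocarcinoma line, was kept in 0.01% DMSO (n = 4, labelled sensitive) or in 32 nM discodermolide (n = 2, labelled senescent). AD32, labelled resistant, was grown in 32 nM discodermolide (n = 3). AD32 4E-BP1, labelled sensitive, was kept in 0.01% DMSO (n = 1). All groups were grown in RPMI medium with 10% serum. AD32 therefore differs from A549 in DMSO by line and by drug at once, and from AD32 4E-BP1 by construct and by drug at once, so these cannot be told apart. The labels give no duration of treatment and no promoter for the construct, and they do not say whether AD32 is 1 clone. The replicates are labelled biological with no word on separate cultures, so each p-value measures only the spread between these samples, which may be technical.

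When unfolded proteins build up in the ER, the sensors PERK, IRE1 and ATF6 slow translation and raise the folding capacity of the compartment. PERK, and GCN2 when amino acids are scarce, phosphorylate eIF2, which favours translation of the transcription factor ATF4. ATF4 then drives genes for amino acid synthesis and uptake, tRNA charging and, under lasting stress, the CHOP (DDIT3) programme. IRE1 splices the XBP1 message, and XBP1 and cleaved ATF6 drive the chaperones and the degradation machinery of the ER. ATF4 protein and XBP1 splicing are largely regulated after transcription, and neither was measured by these arrays.

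Promoter stretches of some genes with a match are printed below, since the branches are driven through different elements. Promoters of 32 of the 35 genes were found among 27305 RefSeq promoters of the GRCh38.p14 assembly, and the 250 bases before the annotated start were searched on both strands. The ER stress response element (ERSE, which is CCAAT, 9 bases of any kind and CCACG), its variant ERSE-II (ATTGG, 1 base of any kind and CCACG) and the unfolded protein response element (UPRE, TGACGTGG) are binding sites of ATF6 and XBP1. At least 1 of them was found in 8 of 15 ER chaperone promoters (53.3%), in 0 of 17 ATF4 branch promoters and in 217 of all promoters (0.795%). By element, ERSE was present in 0.0806% of all promoters, ERSE-II in 0.0513% and UPRE in 0.667%. In capitals are the elements, or for the ERSE its 2 end blocks, and in HYOU1 the upstream capitals are a UPRE that overlaps an ERSE-II.
HSPA5, chr9:125241378-125241428, minus strand: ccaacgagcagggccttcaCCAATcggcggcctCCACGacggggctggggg
HYOU1, chr11:119057265-119057400, minus strand: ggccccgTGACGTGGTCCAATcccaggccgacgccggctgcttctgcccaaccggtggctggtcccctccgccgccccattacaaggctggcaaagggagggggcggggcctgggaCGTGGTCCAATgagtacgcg
SDF2L1, chr22:21642102-21642137, plus strand: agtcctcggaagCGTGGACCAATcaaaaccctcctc
CRELD2, chr22:49918539-49918584, plus strand: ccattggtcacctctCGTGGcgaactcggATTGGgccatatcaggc

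HSPA5 and CRELD2 carry the ERSE (reversed in CRELD2), and SDF2L1 and HYOU1 the ERSE-II, reversed in both. XBP1, HSP90B1 and CALR also held an ERSE, and HERPUD1 an ERSE-II.

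On the ATF4 side, the C/EBP-ATF response element (CARE) was searched as TGATGNAAN and as TTGCATCA, which overlaps the reverse of the former. TGATGNAAN was found in 3 of 17 ATF4 branch promoters (17.6%), in 1 of 15 ER chaperone promoters (6.67%) and in 3.18% of all promoters. TTGCATCA was found in 0.82% of all promoters. CARE matches are in capitals in the sequences of ASNS, CHAC1 and AARS1. HERPUD1 was the only gene of either branch whose window held both a CARE match and an ER element, and both are in capitals. Several genes described below (DDIT3, TRIB3, WARS1, CTH, SLC7A5, DNAJB9, MANF and PDIA4) had no match to any of these elements in the window. A match is a description of the letters, not of binding.
ASNS, chr7:97872453-97872493, minus strand: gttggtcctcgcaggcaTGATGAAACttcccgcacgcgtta
CHAC1, chr15:40953246-40953281, plus strand: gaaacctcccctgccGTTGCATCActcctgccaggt
AARS1, chr16:70289671-70289706, minus strand: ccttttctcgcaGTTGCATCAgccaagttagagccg
HERPUD1, chr16:56931957-56932042, plus strand: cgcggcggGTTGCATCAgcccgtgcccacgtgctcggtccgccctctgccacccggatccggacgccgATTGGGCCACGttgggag

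Several arrays stood apart. The mean of 29 measured G2/M genes, which mark dividing cells, lay between 5.19 and 6.70 on AD32 replicates 1 and 2, on both discodermolide arrays and on A549 DMSO replicate 1, and between 9.46 and 9.86 on the other 5 arrays. AD32 replicate 3 correlated better with the AD32 4E-BP1 array (r = 0.9828 over all probe sets) than with AD32 replicates 1 (0.9591) and 2 (0.9649). Its correlations with A549 DMSO replicates 2, 3 and 4 were also higher than these (0.9813, 0.9753 and 0.9754). A549 DMSO replicate 1 was closest to A549 discodermolide replicate 1 (0.9777) and correlated less with the other DMSO arrays (0.9561 to 0.9608). The array labelled AD32 4E-BP1 was closest to A549 DMSO replicate 2 (0.9955). Of 601 genes called at least 2-fold different between AD32 and A549 in DMSO, it lay nearer the A549 DMSO mean for 579 (96.3%), among them KRT7, at 7.35 against 11.74 to 11.84 on the AD32 arrays. It is therefore named below by its label, and every direction drawn from it rests on that label. A549 DMSO replicates 3 and 4 were nearly identical (0.9973). Array medians lay between 6.50 and 6.63. The epithelial keratins KRT8 and KRT18 were high on all arrays (12.67 to 14.002), while EPCAM (3.30 to 3.87) and the lung factor NKX2-1 (4.58 to 5.11) were low. Over the arrays, mean levels of the marker lists were 3.99 to 4.52 for leukocytes, 4.45 to 4.85 for endothelium and 5.30 to 6.22 for fibroblasts. The RNA is bulk, so fewer cells of a kind and less RNA per cell cannot be told apart.

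Many stress genes differed widely between replicates of a group, and 0 of the 34 measured genes passed the threshold of an adjusted p under 0.05 (limma, Benjamini-Hochberg over all genes) in any of 5 comparisons. Within groups, the same arrays were high or low in most ATF4 branch genes. AD32 replicate 3 was the lowest of the 3 AD32 arrays in 17 of 19 ATF4 branch genes (89.5%, against 40.5% of all genes). A549 DMSO replicate 1 was the highest of its 4 arrays in 15 of 19 (78.9%, against 41.5%), and A549 DMSO replicate 2 the lowest in 16 of 19 (84.2%, against 20.7%). In the ER chaperone branch, AD32 replicate 2 was the highest AD32 array in 10 of 15 genes (66.7%, against 28.8% of all genes). AD32 replicate 3 was the lowest AD32 array in 9 of 15 (60%, against 40.5%). A549 DMSO replicate 2 was the lowest of its group in 10 of 15, and A549 DMSO replicate 1 the highest in 7 of 15 (46.7%, against 41.5%).

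**Figure D1:**
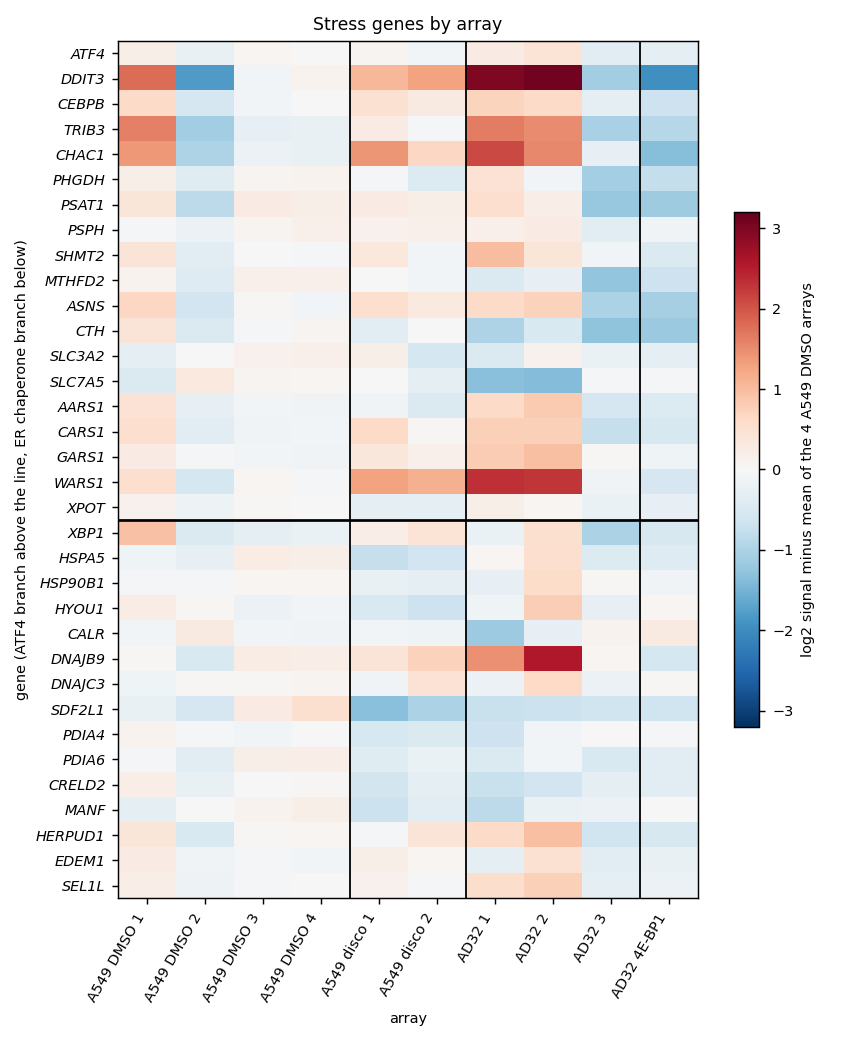
Log2 signal of the 34 measured genes (vertical) on the 10 arrays (horizontal), each gene shown as its difference from its A549 DMSO mean. Many ATF4 branch genes are high on AD32 replicates 1 and 2 and on A549 DMSO replicate 1, and low on AD32 replicate 3, A549 DMSO replicate 2 and the array labelled AD32 4E-BP1.

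By residual SD within groups, DDIT3, TRIB3 and CHAC1, ATF4 effectors that act late in the response, varied most among the stress genes. DDIT3 encodes CHOP, a transcription factor linked to cell death under lasting ER stress. DDIT3 read 9.81, 6.20, 7.91 and 8.12 on A549 DMSO replicates 1 to 4, 9.07 and 9.29 in discodermolide, 10.99, 11.09 and 6.89 on AD32 replicates 1 to 3, and 6.05 on the array labelled AD32 4E-BP1. The lowest and the highest array thus differed 32.9-fold, and AD32 replicates 1 and 2 lay 17.1-fold and 18.4-fold above AD32 replicate 3. The AD32 and the A549 DMSO arrays overlap, and both discodermolide arrays lie between DMSO replicates 1 and 4. The residual SD of DDIT3 within groups was 1.73, rank 56 of 18258 genes (top 0.307%). Its mean was 1.65 higher on the log2 scale in AD32 than in A549 in DMSO (SE 1.08, 95% interval -0.79 to 4.09, adjusted p = 0.478), and 1.17 higher in discodermolide than in DMSO (SE 1.23, adjusted p = 0.818).

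TRIB3, a pseudokinase that feeds back on ATF4, read 10.47, 7.74, 8.61 and 8.63 in A549 in DMSO, 9.13 and 8.81 in discodermolide, 10.51, 10.36 and 7.83 in AD32, and 7.94 on the array labelled AD32 4E-BP1. CHAC1, an enzyme that degrades glutathione and whose promoter holds the CARE printed above, read 8.88, 6.50, 7.30 and 7.25 in DMSO, 8.91 and 8.16 in discodermolide, 9.61, 9.03 and 7.21 in AD32, and 6.11 on the 4E-BP1 array. In both genes A549 DMSO replicate 1 lay close to AD32 replicates 1 and 2, and AD32 replicate 3 lay with A549 DMSO. CHAC1 was 1.13 higher on the log2 scale in AD32 than in A549 in DMSO (adjusted p = 0.402) and 1.05 higher in discodermolide than in DMSO (SE 0.74, adjusted p = 0.675). CEBPB, a partner of ATF4 on CARE sites, was likewise highest in its group on A549 DMSO replicate 1 and lowest on A549 DMSO replicate 2 and AD32 replicate 3, in a narrower range (8.41 to 9.78). The ATF4 message itself read between 10.96 and 11.75 on all arrays, with a difference of 0.11 for AD32 against A549 in DMSO (adjusted p = 0.845). A second ATF4 probe set, of lower mean, had another pattern: AD32 read 11.59, 11.75 and 10.96 on the probe set used and 8.29, 7.82 and 7.98 on the other.

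**Figure D2:**
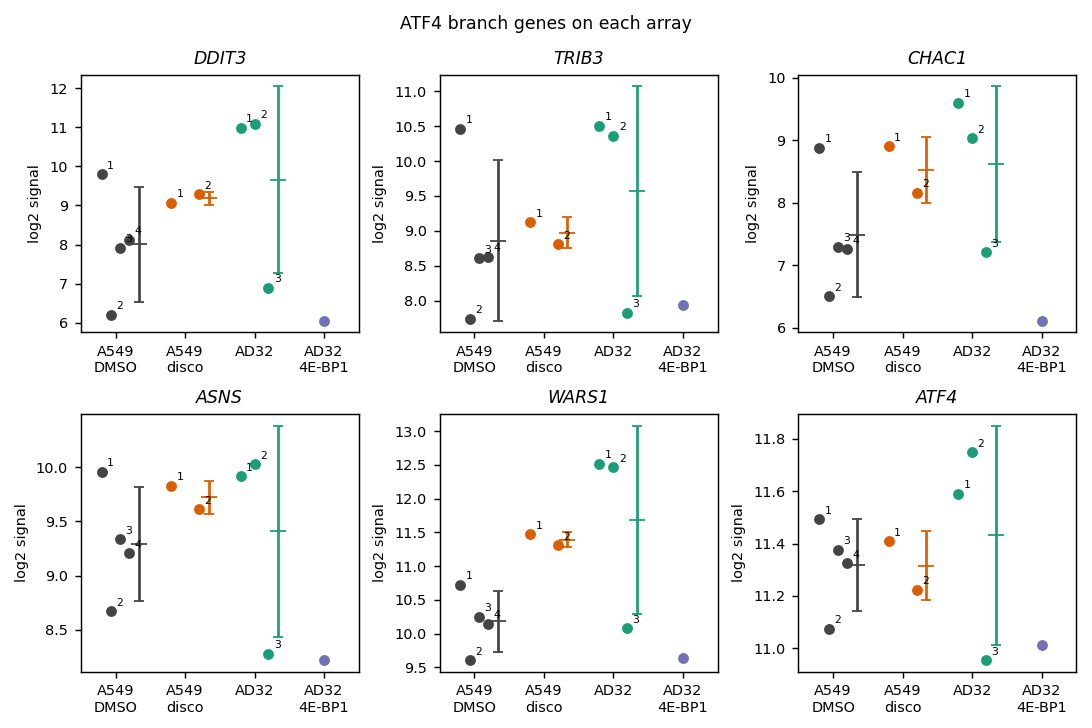
Log2 signal of selected ATF4 branch genes on every array (points, numbered by replicate), by group (horizontal). The dash and bar beside the points of a group are its mean and SD, drawn for the 3 groups with over 1 array. In DDIT3 the AD32 points split into 2 near 11 (10.99 and 11.09) and 1 at 6.89, inside the A549 DMSO range.

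Enzymes of serine and one-carbon synthesis spanned narrower ranges than DDIT3, TRIB3 and CHAC1. PHGDH, which starts serine synthesis, read 11.52, 10.94, 11.44 and 11.46 in A549 in DMSO, 11.27 and 10.91 in discodermolide, 11.79, 11.26 and 10.26 in AD32, and 10.58 on the array labelled AD32 4E-BP1. PSAT1, the next enzyme, read 11.52, 10.29, 11.38 and 11.31 in DMSO, 11.39 and 11.32 in discodermolide, 11.66, 11.33 and 9.92 in AD32, and 9.98 on the 4E-BP1 array. AD32 replicate 3 and the 4E-BP1 array were the lowest in both genes, and A549 DMSO replicate 2 was the lowest of its group. PSPH (8.88 to 9.50) and SHMT2 (10.49 to 11.94) complete the serine and glycine steps. MTHFD2, the mitochondrial folate enzyme, read 11.53, 10.9997, 11.58 and 11.59 in DMSO, 11.43 and 11.35 in discodermolide, 10.96, 11.16 and 10.16 in AD32, and 10.77 on the 4E-BP1 array. Its mean was 0.66 lower on the log2 scale in AD32 than in A549 in DMSO (SE 0.25, adjusted p = 0.174), while the groups overlapped through AD32 replicate 2 and A549 DMSO replicate 2.

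ASNS, asparagine synthetase and a classical ATF4 target, read 9.96, 8.67, 9.34 and 9.20 in A549 in DMSO, 9.83 and 9.61 in discodermolide, 9.91, 10.02 and 8.28 in AD32, and 8.22 on the array labelled AD32 4E-BP1. AD32 spanned the whole A549 DMSO range, and the difference of means was 0.11 on the log2 scale (adjusted p = 0.944). CTH, which makes cysteine from cystathionine, had another pattern: it read 7.33, 6.44, 6.87 and 7.00 in DMSO, 6.55 and 6.93 in discodermolide, 5.93, 6.42 and 5.61 in AD32, and 5.72 on the 4E-BP1 array. All AD32 arrays lay below all A549 DMSO arrays, AD32 replicate 2 by a small margin. The difference was -0.92 (SE 0.25, 95% interval -1.48 to -0.36) and had the smallest adjusted p of the stress genes in that comparison, 0.0675. It passed the threshold when A549 DMSO replicate 2 was left out (-1.08, adjusted p = 0.0485), beside 4.08% of all genes. It also passed with array weights (-0.81, adjusted p = 0.0201), beside 23.1% of all genes.

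The amino acid exchanger of SLC7A5 and SLC3A2 imports leucine and other large neutral amino acids. SLC7A5, the transporting subunit, read 11.81, 12.59, 12.37 and 12.34 in A549 in DMSO, 12.25 and 11.98 in discodermolide, 10.93, 10.89 and 12.22 in AD32, and 12.24 on the array labelled AD32 4E-BP1. Here AD32 replicates 1 and 2 were the low arrays, opposite to DDIT3 and TRIB3. Its mean was 0.93 lower on the log2 scale in AD32 than in DMSO (SE 0.33, adjusted p = 0.15), and without AD32 replicate 3 the value was -1.36 (adjusted p = 0.00611). The partner subunit SLC3A2 stayed between 11.30 and 12.04.

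The aminoacyl-tRNA synthetases charge tRNAs with amino acids. WARS1, the tryptophan enzyme, which interferon also induces, read 10.72, 9.61, 10.25 and 10.14 in A549 in DMSO, 11.47 and 11.31 in discodermolide, 12.52, 12.47 and 10.08 in AD32, and 9.64 on the array labelled AD32 4E-BP1. Both discodermolide arrays lay above every DMSO array, as did AD32 replicates 1 and 2 but not replicate 3. The log2 difference was 1.21 for discodermolide against DMSO (SE 0.62, adjusted p = 0.517) and 1.51 for AD32 against DMSO (SE 0.55, adjusted p = 0.163). GARS1, the glycine enzyme, read 11.92, 11.60, 11.55 and 11.53 in DMSO, 12.00 and 11.81 in discodermolide, 12.46, 12.61 and 11.68 in AD32, and 11.51 on the 4E-BP1 array. Its difference between AD32 and DMSO was 0.60 (SE 0.22, adjusted p = 0.173). AARS1 (11.56 to 12.93) and CARS1 (8.95 to 10.44), for alanine and cysteine, were likewise highest on AD32 replicates 1 and 2. XPOT, which exports tRNA from the nucleus, stayed between 10.87 and 11.38.

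In the ER chaperone branch, several chaperones and their secreted or lumenal partners were lower on the discodermolide arrays than on any A549 DMSO array. Of 15 genes, 7 showed this: HSPA5, HSP90B1, HYOU1, SDF2L1, PDIA4, CRELD2 and MANF. It was so for 7.7% of all genes, and among 19 ATF4 branch genes for XPOT alone. None passed the adjusted threshold, which 0.372% of all genes passed in this comparison (68 genes). The 5 genes with an unadjusted p under 0.05, all lower, were of the ER chaperone branch, and 2.89% of all genes were lower by that rule. Counts under the alternatives, given next, cover all 34 stress genes in both directions. The count of 5 became 1 without A549 DMSO replicate 4 or without discodermolide replicate 1. It became 2 without A549 DMSO replicate 3 or with the replicate block, and 3 without discodermolide replicate 2. The count rose to 7 without AD32 replicate 3 and to 8 with only the compared groups. It was 14 with array weights, and also with A549 DMSO replicate 1 and AD32 replicate 3 left out together. The median log2 difference was -0.26 over the ER chaperone branch, 0.12 over the ATF4 branch and 0.02 over all genes. An ER element was present in the promoters of 5 of these 7 genes and of 3 of the other 8. The genes were divided by these same expression values, and whether the element bears on them was not tested. With array weights, 8 of 34 stress genes passed (25% of all genes), 6 of them lower.

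SDF2L1, a partner of HSPA5 that keeps folding clients soluble, had the largest difference of the branch. It read 8.22, 7.92, 8.71 and 8.96 in DMSO against 7.12 and 7.44 in discodermolide, 7.75, 7.76 and 7.82 in AD32 and 7.82 on the array labelled AD32 4E-BP1. The difference between discodermolide and DMSO was -1.17 on the log2 scale, or 2.25-fold (SE 0.27, 95% interval -1.78 to -0.56, adjusted p = 0.124). It passed the threshold when A549 DMSO replicate 1 was left out (-1.25, adjusted p = 0.0488), beside 3.52% of all genes. It also passed with array weights (adjusted p = 0.00103), beside 25% of all genes. With A549 DMSO replicate 1 and AD32 replicate 3 left out together it passed too (adjusted p = 0.0121), beside 14.5%. The 3 AD32 arrays, which lay close together here, were also all below the DMSO arrays (-0.67, SE 0.24, adjusted p = 0.149).

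HSPA5 encodes BiP, the main Hsp70 of the ER, and its promoter holds the ERSE printed above. It read 11.94, 11.81, 12.30 and 12.25 in A549 in DMSO, 11.33 and 11.46 in discodermolide, 12.14, 12.61 and 11.64 in AD32, and 11.65 on the array labelled AD32 4E-BP1. Its log2 difference was -0.68 for discodermolide against DMSO (SE 0.26, adjusted p = 0.369), 0.06 for AD32 against DMSO (adjusted p = 0.947) and 0.74 for AD32 against discodermolide (SE 0.27, adjusted p = 0.211). All AD32 arrays lay above both discodermolide arrays. HYOU1, a larger Hsp70 relative and exchange factor, read 10.02, 9.83, 9.61 and 9.71 in DMSO, 9.30 and 9.12 in discodermolide, 9.64, 10.57 and 9.54 in AD32, and 9.86 on the 4E-BP1 array. Its difference was -0.58 for discodermolide against DMSO (SE 0.28, adjusted p = 0.477) and 0.71 for AD32 against discodermolide (SE 0.29, adjusted p = 0.27).

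CRELD2 and MANF are small ER proteins that are made and secreted under ER stress. CRELD2 read 8.43, 8.0003, 8.22 and 8.26 in A549 in DMSO, 7.64 and 7.94 in discodermolide, 7.51, 7.62 and 7.92 in AD32, and 7.89 on the array labelled AD32 4E-BP1. Every array outside the DMSO group was below the lowest DMSO array. The difference was -0.43 for discodermolide (SE 0.18, adjusted p = 0.406) and -0.54 for AD32 (SE 0.16, adjusted p = 0.0838), both against the same 4 DMSO arrays. MANF read 10.24, 10.54, 10.66 and 10.72 in DMSO and 9.84 and 10.18 in discodermolide (-0.53, SE 0.23, adjusted p = 0.434), and AD32 (9.70, 10.32 and 10.35) overlapped both. The disulfide isomerase PDIA4 read 11.52, 11.38, 11.33 and 11.44 in DMSO and 10.89 and 10.96 in discodermolide (-0.49, SE 0.19, adjusted p = 0.374). AD32 reached 11.41 in this gene and its lowest array read 10.76.

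**Figure D3:**
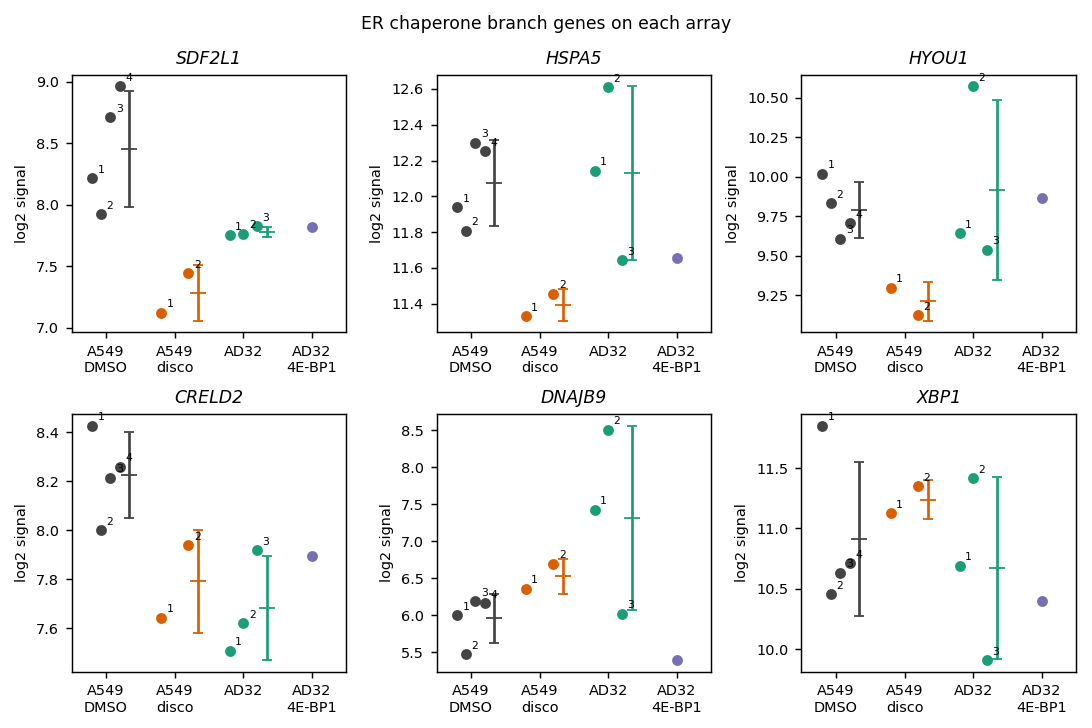
Log2 signal of selected ER chaperone branch genes on every array (points, numbered by replicate), by group (horizontal). The dash and bar beside the points of a group are its mean and SD, drawn for the 3 groups with over 1 array. Both discodermolide points of SDF2L1 (7.12 and 7.44) and HSPA5 (11.33 and 11.46) lie below all 4 A549 DMSO points.

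DNAJB9, an HSPA5 cochaperone under XBP1 control, did not share the low discodermolide values. It read 6.0007, 5.47, 6.19 and 6.16 in A549 in DMSO, 6.36 and 6.69 in discodermolide, 7.43, 8.51 and 6.02 in AD32, and 5.39 on the array labelled AD32 4E-BP1. Like WARS1, it lay above every DMSO array on both discodermolide arrays, which 15.2% of all genes did, and both genes were also above them on AD32 replicates 1 and 2. The difference was 1.36 on the log2 scale for AD32 against DMSO (SE 0.48, adjusted p = 0.153). XBP1, the transcription factor of the IRE1 arm, read 11.85, 10.45, 10.63 and 10.71 in DMSO, 11.13 and 11.35 in discodermolide, 10.69, 11.41 and 9.91 in AD32, and 10.40 on the 4E-BP1 array. DMSO replicate 1 was its highest array, and the adjusted p was 0.883 for discodermolide and 0.836 for AD32 against DMSO.

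HERPUD1, EDEM1 and SEL1L serve the degradation of misfolded ER proteins. HERPUD1, with both a CARE and an ERSE-II match, read 11.01, 10.13, 10.65 and 10.68 in A549 in DMSO, 10.56 and 11.04 in discodermolide, 11.24, 11.57 and 9.99 in AD32, and 10.11 on the array labelled AD32 4E-BP1. Its low arrays were those of the ATF4 branch: DMSO replicate 2, AD32 replicate 3 and the 4E-BP1 array. SEL1L (10.23 to 11.29) and EDEM1 (8.17 to 9.02) were highest on AD32 replicate 2. Of the remaining lumenal proteins, HSP90B1 (12.39 to 13.26) and DNAJC3 (8.76 to 9.60) were also highest on that array, PDIA6 ranged from 12.13 to 12.82, and the lectin chaperone CALR was lowest on AD32 replicate 1 (9.58) and otherwise 10.48 to 11.03.

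For AD32 against A549 in DMSO, which compares the resistant line in drug with its labelled sensitive counterpart, 5.72% of all genes passed the threshold and 0 of 34 stress genes did. By an unadjusted p under 0.05, 3 were higher (DNAJB9, WARS1 and GARS1) and 5 lower (CTH, CRELD2, SDF2L1, SLC7A5 and MTHFD2), against 11.2% and 8.49% of all genes. These 8 became 4 without AD32 replicate 1, 5 without AD32 replicate 2, A549 DMSO replicate 2 or A549 DMSO replicate 3, and 18 without AD32 replicate 3. Arrays did not overlap in 3 of the 34, all lower: CTH, SDF2L1 and CRELD2 (6.49% of all genes were lower in this way and 8.91% higher). Leaving out another AD32 or A549 DMSO replicate gave 0 stress genes, or 1 without A549 DMSO replicate 2. Without AD32 replicate 3, which stands apart from its group, 7 of 34 passed, beside 10.8% of all genes. These were DDIT3 (3.03, adjusted p = 0.0415), WARS1 (2.31, adjusted p = 0.00141), DNAJB9 (2.01, adjusted p = 0.00595), GARS1 (0.88) and SEL1L (0.66), which were higher, and SLC7A5 (-1.36) and CRELD2 (-0.66), which were lower. With array weights 11 passed (23.1% of all genes), and 17 passed with A549 DMSO replicate 1 and AD32 replicate 3 left out together (28.3%).

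Between AD32 and A549, both in 32 nM discodermolide, 3.74% of all genes and 0 of 34 stress genes passed. HSPA5, HYOU1, SDF2L1 and XPOT were higher on all AD32 arrays than on both discodermolide arrays (14.4% of all genes), and CTH and MTHFD2 lower (18% of all genes). By an unadjusted p under 0.05, HSPA5 and HYOU1 were higher (5.77% of all genes) and CTH lower (9.71%, log2 difference -0.75, SE 0.30, adjusted p = 0.252). These 3 became 0 without discodermolide replicate 2, 1 without discodermolide replicate 1 and 9 without AD32 replicate 3. Without AD32 replicate 3, HSPA5 (0.98, adjusted p = 0.0453) and SLC7A5 (-1.20, adjusted p = 0.0279) passed, 2 of 34 beside 5.94% of all genes. Leaving out another AD32 or A549 DMSO replicate gave 0. DDIT3 differed by 0.48 between these groups (95% interval -2.44 to 3.39), an interval that leaves both directions possible.

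**Figure D4:**
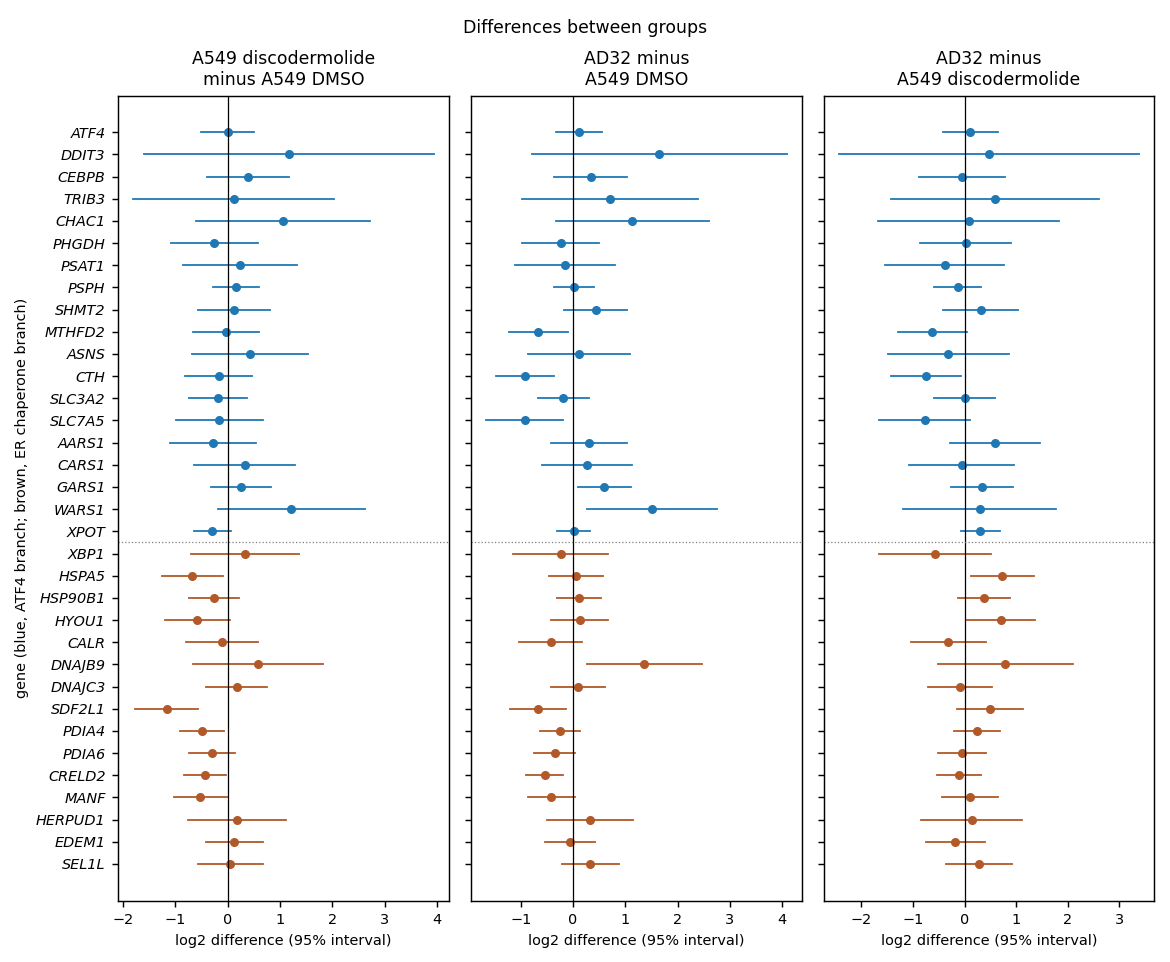
Log2 difference (horizontal) with its 95% interval for each stress gene (vertical) in the 3 comparisons among A549 in DMSO, A549 in discodermolide and AD32. The intervals of DDIT3 are the widest (-0.79 to 4.09 for AD32 against A549 in DMSO), and no gene passed the adjusted threshold.

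The array labelled AD32 4E-BP1 had the lowest ATF4 branch mean of all 10 arrays, 9.53, next to AD32 replicate 3 (9.62) and A549 DMSO replicate 2 (9.73). Against AD32, 0 of 34 stress genes passed, beside 0.92% of all genes (168 genes). The median log2 difference was -0.74 over the ATF4 branch, -0.06 over the ER chaperone branch and -0.03 over all genes. It was -3.61 for DDIT3 (SE 1.63, 95% interval -7.30 to 0.09, adjusted p = 0.546), -2.51 for CHAC1 (SE 0.98, adjusted p = 0.45), -2.04 for WARS1 (SE 0.83, adjusted p = 0.473) and -1.93 for DNAJB9 (SE 0.73, adjusted p = 0.426). The last 3 had an unadjusted p under 0.05, and 5.27% of all genes were lower by that rule. These 3 became 0 without AD32 replicate 1, 1 without AD32 replicate 2 and 19 without AD32 replicate 3, and leaving out another array gave 2 to 7. The array lay below all AD32 arrays in 8 of 19 ATF4 branch genes and 1 of 15 ER chaperone genes, beside 27.8% of all genes. Without AD32 replicate 3, 4 passed, all lower (DDIT3, GARS1, WARS1 and DNAJB9), beside 3.59% of all genes, and with array weights 6 did (7.05% of all genes). A549 DMSO replicate 2, the array closest to the one labelled AD32 4E-BP1, was itself the lowest DMSO array in 26 of 34 stress genes. For AD32 4E-BP1 against A549 in DMSO, 31 of 34 stress genes were lower, beside 9276 of all 18258 genes. Of the 34, 25 lay below all 4 DMSO arrays (15 of 19 and 10 of 15 by branch), against 15.9% of all genes. In that comparison 0% of all genes passed in limma, 1.14% had an unadjusted p under 0.05, and CTH was the only stress gene among them (-1.19, SE 0.36, adjusted p = 1), a count that became 3 without A549 DMSO replicate 2 and 5 without AD32 replicate 3. A lone array carries no spread of its own, and these tests assume that it varies like the other groups.

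The ATF4 branch mean was 10.84 and 10.82 on AD32 replicates 1 and 2, 10.68 on A549 DMSO replicate 1, and 10.53 and 10.31 on the discodermolide arrays, the 5 arrays with a low G2/M mean. On the 5 with a high G2/M mean it was 9.73, 10.21, 10.21, 9.62 and 9.53, for A549 DMSO replicates 2 to 4, AD32 replicate 3 and AD32 4E-BP1. The part of the G2/M level in the stress gene values was not tested. The ER chaperone mean on the low G2/M arrays was 10.53 on AD32 replicate 2, 9.94 on AD32 replicate 1, 9.85 and 10.01 in discodermolide, and 10.23 on A549 DMSO replicate 1. On the high G2/M arrays it was 9.95, 10.16 and 10.20 on A549 DMSO replicates 2 to 4, 9.83 on AD32 replicate 3 and 9.90 on AD32 4E-BP1, so the ranges of the divisions overlap.

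**Figure D5:**
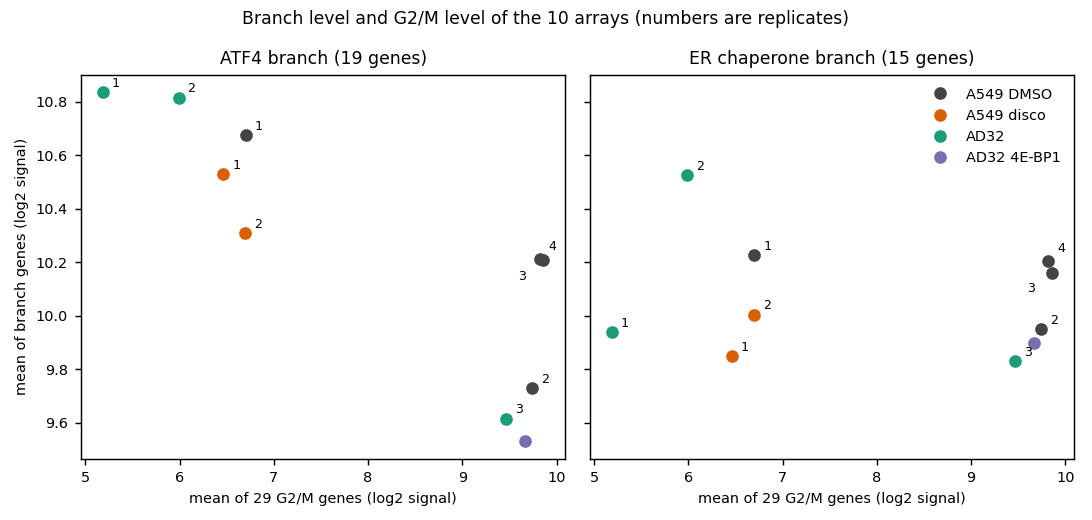
Mean log2 signal of each branch (vertical) against the mean log2 signal of 29 G2/M genes (horizontal) on the 10 arrays, coloured by group and numbered by replicate. The 5 arrays with a G2/M mean of at most 6.70 have ATF4 branch means from 10.31 to 10.84, the other 5 from 9.53 to 10.21.

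Wider lists of the same pathways held few calls. Of 34 further ATF4-linked genes 32 were measured, of 38 further ER genes 35, and of 11 sensors and kinases 10. None was called for discodermolide against DMSO or for AD32 against discodermolide. For discodermolide against DMSO, 24 of 35 ER genes and 25 of 32 ATF4-linked genes were higher, beside 54% of all genes. By an unadjusted p under 0.05, 5 genes of each list were higher and 0 lower, beside 1506 and 527 of all 18258 genes. Both discodermolide arrays lay above every DMSO array in 5 ER and 6 ATF4-linked genes (15.2% of all genes). They lay below in 2 and 0 (7.7%). For AD32 against A549 in DMSO, 1 of 10 sensors and kinases, 2 of 32 ATF4-linked genes and 0 of 35 ER genes were called, beside 5.72% of all genes. EIF2AK4, the kinase GCN2 that senses uncharged tRNA, read 8.12, 8.72, 8.71 and 8.74 in DMSO, 9.12 and 8.91 in discodermolide, 9.44, 9.55 and 10.17 in AD32, and 8.88 on the array labelled AD32 4E-BP1. It was 2.21-fold higher in AD32 (log2 1.15, SE 0.22, adjusted p = 0.0183). ATF3, a stress-induced transcription factor downstream of ATF4, read 6.24, 5.98, 5.56 and 5.73 in DMSO, 6.32 and 6.57 in discodermolide, 7.46, 7.18 and 6.72 in AD32, and 5.78 on the 4E-BP1 array. It was 2.37-fold higher in AD32 (log2 1.24, SE 0.22, adjusted p = 0.0117). In both genes all 3 AD32 arrays, replicate 3 included, lay above every A549 DMSO array, as in 8.91% of all genes. By list, 3 of 10 sensors and kinases, 1 of 32 ATF4-linked genes, 2 of 35 ER genes and 0 of the 34 stress genes did so. EIF2AK4 and ATF3 are named because they passed the threshold on these same arrays. Without AD32 replicate 2 both just missed the threshold at a difference of like size (log2 1.23, adjusted p = 0.0513 for EIF2AK4, and 1.22, adjusted p = 0.0534 for ATF3).

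EIF4EBP1, an ATF4 target that encodes the translation repressor 4E-BP1, is the gene named in the label of AD32 4E-BP1. It read 10.23, 9.50, 9.47 and 9.52 in A549 in DMSO, 9.76 and 9.58 in discodermolide, 8.93, 7.99 and 8.63 in AD32, and 11.61 on the array labelled AD32 4E-BP1, the highest of all. It was lower in AD32 than in A549 in DMSO (log2 -1.16, SE 0.26, adjusted p = 0.0325), a call lost under 9 of 19 alternatives. It was higher on the 4E-BP1 array than in AD32 (3.09, SE 0.39, adjusted p = 0.00709), which ended when only the compared groups were fitted (adjusted p = 0.15).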

How the data were processed

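The deposited values are log2 probe set signals. Per the submitters' processing notes, the authors made them in Affymetrix Expression Console. The log2 scale was judged from their range. Its version and its summarisation and normalization settings are not stated by the labels or headers, and a low level cannot be told from background. Of 24308 probe sets, 19262 name 1 gene and 1720 several, and 3326 were unnamed in the annotation used. Genes numbered 18258, of which 758 had over 1 probe set and were read from the one with the highest mean.

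Tests used limma 3.58.1 in R 4.3.3 (lmFit and eBayes) over all 10 arrays and 4 groups, with 6 residual degrees of freedom, no filter on low values, two-sided p-values, Benjamini-Hochberg adjustment over all genes and a threshold of 0.05. The stress genes and lists were chosen with earlier results of these data known. Their values are given for every member or as ranges. Of the wider lists, the genes named were those that passed the threshold. On simulated data over 18258 genes with 200 changed, the share recovered at a log2 change of 1 was 47% for discodermolide against DMSO, 52% for AD32 against DMSO, 33% for AD32 against discodermolide, 20% for AD32 4E-BP1 against AD32 and 24% for it against DMSO. The simulated noise was independent between arrays and the changed genes were drawn at random, so these shares do not describe the stress genes. Same-numbered replicates did not deviate together throughout, so they were not treated as pairs. Alternatives are described in the closing section. Promoters were searched in Python 3.11.15.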

Additional observations from a re-analysis of the deposited data

Results flagged for a closer look

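In the 4 A549 DMSO arrays, replicate 2 stood apart from the others in 4 stress genes by Dixon's test, in which the gap to the nearest array as a share of the group's range is set against its 95% critical value for 4 samples. The ratio was 0.866 for PHGDH, 0.833 for PSAT1 and 0.89 for MTHFD2, where replicate 2 was the lowest. It was 0.919 for CALR, where replicate 2 was the highest. Chance gives such a ratio in about 1 in 20 groups. The 4 genes were 11.8% of the 34 stress genes, and 2502 of all 18258 genes (13.7%) passed the same limit, 2049 of them through A549 DMSO replicate 1. The cause was not tested.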

How the results depend on the processing

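The count of stress genes called, 0 in each comparison, stayed at 0 under median centring, quantile normalization on top of the deposited values, a trended prior, averaging of all probe sets per gene, dropping the lowest 33.3% of genes by mean, a fit of only the compared groups, the averaging of A549 DMSO replicates 3 and 4 and, for the 3 comparisons it could be fitted for, the replicate block. With array weights the counts were 8 for discodermolide against DMSO, 11 for AD32 against DMSO, 3 for AD32 against discodermolide and 6 for AD32 4E-BP1 against AD32. In that fit 25%, 23.1%, 10.2% and 7.05% of all genes passed, and the nearly identical A549 DMSO replicates 3 and 4 had the highest weights (2.92 and 4.65). With A549 DMSO replicate 1 and AD32 replicate 3 left out together, the counts were 5, 17, 10 and 15 beside 14.5%, 28.3%, 15.2% and 16.5% of all genes. These arrays were chosen because they stand apart, so this fit has a smaller spread by construction. The fits without AD32 replicate 3 alone share this limit. Leaving out 1 replicate gave 0 to 1, 0 to 7, 0 to 2 and 0 to 4, and 0 to 0 for AD32 4E-BP1 against DMSO, which was 0 throughout. No call had the opposite sign, but 55 of 170 uncalled gene and comparison pairs changed sign under at least 1 alternative.

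Over all genes, the 68 calls for discodermolide against DMSO became 36 without the lowest 33.3%, 4571 with array weights, 106 with only the compared groups, 4 with the replicate block, 15 with replicates 3 and 4 averaged, 2656 with both arrays left out and 8 to 643 without 1 replicate. The 1045 for AD32 against DMSO became 4220 with array weights, 650 with the block, 525 with the average, 5162 with both left out and 512 to 2164. The 683 for AD32 against discodermolide became 1868 with weights, 353 with only the compared groups, 2768 with both left out and 132 to 1217. The 168 for AD32 4E-BP1 against AD32 became 107 without the lowest 33.3%, 1288 with weights, 13 with only the compared groups, 99 with the average, 3004 with both left out and 99 to 656. For AD32 4E-BP1 against DMSO, weights gave 3 and leave-outs 0 to 0. The causes were not tested. The number of arrays limits the precision.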
